A study of Homo sapiens with 6 samples.

Results

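The genes described here are those of the DNA damage response and of DNA repair: a list of 48 genes that sense breaks and stalled forks, signal to the cell cycle, or mend the damage by homologous recombination, the Fanconi pathway, mismatch repair, end joining or excision. A probe set, the group of short probes that reads 1 transcript on an Affymetrix array, was taken for a gene when the platform's table mapped it to that symbol alone, older aliases allowed. By this rule 102 probe sets measured 42 of the 48 genes, out of 19775 genes measured in all. ATRIP and PMS2 are listed only on probe sets shared with a neighbour or a related copy, and BRCA2, RBBP8, FANCA and FANCD2 were not analysed here.

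The samples are cybrids, cells made by fusing an enucleated donor of mitochondria with a recipient that has lost its mitochondrial DNA. The 10A/143B cybrids carry mitochondria of MCF10A, a non-tumorigenic breast epithelial line, and the 468/143B cybrids those of MDA-MB-468, a line of triple-negative breast cancer. The recipient of both was 143B p0, the mitochondrial-DNA-free form of a thymidine kinase-deficient osteosarcoma line, so that both groups share the 143B nucleus. In both groups the donors were enucleated after overnight actinomycin D and fused in polyethylene glycol, and medium with bromodeoxyuridine but no uridine selected the cybrids. Nothing in the labels says whether a cybrid was a single clone or a pool, or that replicate RNAs came from separate cultures. The 3 arrays of each cybrid were compared, and the series' title asks whether mitochondria of non-cancerous cells restrain tumour properties of metastatic ones.

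A break in DNA is found by the MRN complex and the kinase ATM, and single-stranded DNA at a stalled fork by the kinase ATR, and both kinases pass the signal to the effector kinases CHEK1 and CHEK2. Ubiquitin ligases and the proteins that read their marks then gather at the break, where the choice falls between end joining, which can act at any time, and homologous recombination, which copies an intact sister in S and G2 phase. Many of these genes are better transcribed in cycling cells, and loss of several of them, BRCA1 above all, predisposes to breast cancer.

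Arrays differed little in overall signal, with median intensities of 21.7 to 24.4 in 10A/143B and 20.4 to 21.4 in 468/143B cybrids. Replicates 2 and 3 of each group were nearly the same, with an SD of their log2 difference of 0.0788 in 10A/143B and 0.0922 in 468/143B cybrids, against 0.263 to 0.289 for differences from replicate 1, so the groups were also compared with replicates 2 and 3 averaged, as 2 samples against 2. The 3′ to 5′ signal ratio of ACTB is a sign of RNA integrity, lower where less of the 5′ signal is lost. It was 1.59 to 1.92 in 10A/143B cybrids. In 468/143B cybrids it was 1.18 in replicate 1 but 1.65 and 1.67 in replicates 2 and 3. The GAPDH ratio was 0.93 to 1.01 in 10A/143B cybrids. In replicates 1, 2 and 3 of 468/143B cybrids it was 0.97, 1.06 and 1.07. Of 5 mesenchymal or osteosarcoma markers, SPARC (-0.66) and RUNX2 (-0.23) were lower, RUNX2 not with replicates 2 and 3 averaged, while COL1A1 and COL1A2 did not pass and COL1A2 averaged 8.49 in 10A/143B and 8.76 in 468/143B cybrids. VIM had a mean intensity of 8687 in 10A/143B and 8418 in 468/143B cybrids. The basal keratin KRT5 averaged 1 in 10A/143B and 1.36 in 468/143B cybrids, at or near the lowest value deposited, and KRT14 averaged 16.5 in 10A/143B and 10.6 in 468/143B cybrids. Of 5 luminal or general epithelial markers, KRT8 (-1.05), KRT18 (-0.34) and KRT19 (-0.67) were lower, of which only KRT8 passed with replicates 2 and 3 averaged. KRT18 had mean intensities of 4908 in 10A/143B and 6198 in 468/143B cybrids, and EPCAM and CDH1 did not pass. The part of these markers in the results was not tested. Among 11 markers of proliferation, 4 increases and 3 decreases passed the test (4 and 1 with replicates 2 and 3 averaged), such as MKI67 (log2 difference 0.84 ± 0.08, SE) and MCM5 (-0.68 ± 0.07).

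Many of the measured repair genes were higher in 10A/143B cybrids. Of 42 genes, 21 were higher and 5 lower at an adjusted p under 0.05 by limma, and 16 did not pass. The shares were 50% and 11.9% of the repair genes, against 19.9% and 15.7% of all 19775 genes (35.6% in either direction). The median log2 difference, 10A/143B minus 468/143B, was 0.42 over the 42 genes and -0.02 over all genes. Differences are on the scale of log2(intensity + 16), which understates the change of dim genes, and n is 3 arrays a group throughout. With replicates 2 and 3 averaged, 19 were higher and 4 lower (13.8% and 8.9% of all genes). The replicate number as a block gave 22 and 6, where 21.3% and 17.8% of all genes passed (39.2% in all). After quantile normalization 20 repair genes were higher and 7 lower, against 17.4% and 19.8% of all genes, and after median centring 20 and 7, against 16.8% and 19.9%. Calls are more frequent among bright genes, since 30.7% of the 13079 genes at or above the median level of all probe sets were higher and 24.8% lower (55.5% in all), and of the 41 repair genes there, 22 were higher and 5 lower. The arrays of the 2 groups did not overlap for 29 of the 42 genes, against 45.8% of all genes, and they did not overlap for any of the 26 that passed. The pair of replicate 1 arrays had the same sign for all 26, which the lack of overlap makes certain. Passing on these arrays also favours separation on them, so neither is further support. Since the arrays hold RNA of whole cultures, fewer cells in a state and less RNA per cell cannot be told apart.

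**Figure D1:**
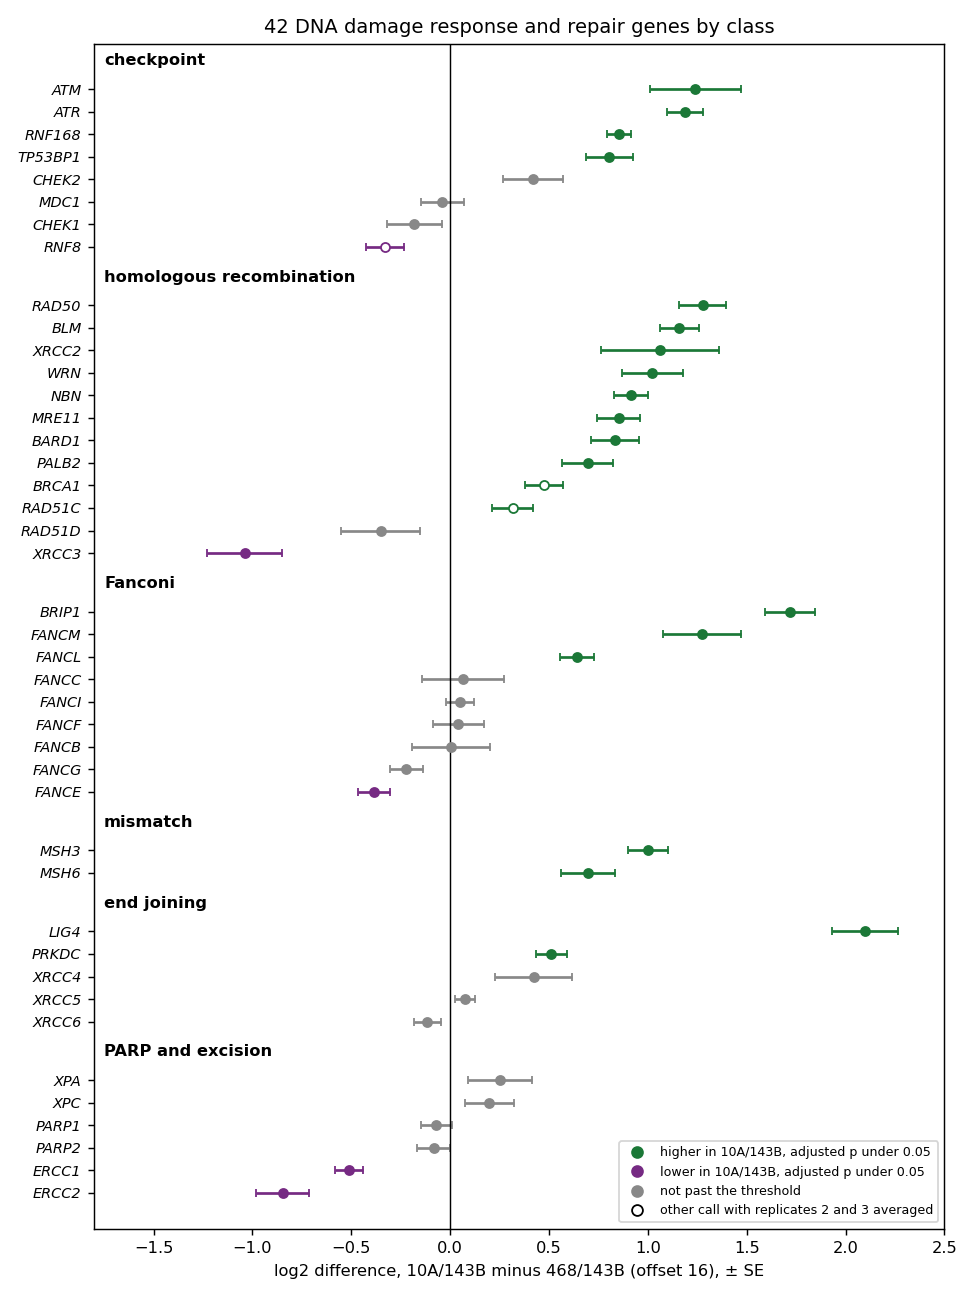
Log2 difference (10A/143B minus 468/143B, offset 16) of the 42 measured genes by class, as point ± SE of the fit to 3 against 3 arrays, green where higher in 10A/143B, purple where lower, grey where not past the threshold, and open where the call differs with replicates 2 and 3 averaged. Of the 12 genes of homologous recombination 10 are green, whereas none of the 6 genes of PARP and excision is.

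Of the 8 measured checkpoint genes, 4 rose in 10A/143B cybrids and 1 fell, with a median log2 difference of 0.61. Both apical kinases rose. ATR, the kinase that answers replication stress, had intensities of 832, 929 and 917 in replicates 1, 2 and 3 of 10A/143B, against 338, 416 and 399 in 468/143B cybrids. Every 10A/143B array thus lay far above every 468/143B array. Its log2 difference was 1.19 ± 0.09 (2.28-fold, adjusted p = 2.32e-05), and a second probe set gave 1.40. ATM, the kinase that answers double-strand breaks, read 505, 407 and 357 in 10A/143B and 108, 204 and 212 in 468/143B cybrids (1.24 ± 0.23, 2.36-fold, adjusted p = 0.00288). The groups did not overlap, and the lowest value came from replicate 1 of the 468/143B cybrids, the array with the low ACTB ratio, whose part in the result was not tested beyond leaving it out. Without it the difference was 0.96 (adjusted p = 0.00217). That ATM probe set carries the suffix for cross-hybridisation, but 2 others were higher as well, by 1.84 and 1.64, while 3 dim ones did not pass (-0.05, -0.47 and -0.14).

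The mediators at the break split. RNF168, the ligase that spreads ubiquitin on histone H2A, had 760, 755 and 771 in 10A/143B and 419, 410 and 416 in 468/143B cybrids (0.85 ± 0.06, 1.81-fold, adjusted p = 1.61e-05). TP53BP1, which reads that mark and shields ends from resection, had 458, 465 and 491 in 10A/143B and 214, 292 and 290 in 468/143B cybrids (0.81 ± 0.12, adjusted p = 0.000833), with 1.17 on a second probe set. Both were higher on every 10A/143B array. RNF8, the ligase that acts before RNF168, went the other way, at 292, 251 and 247 in 10A/143B and 360, 317 and 326 in 468/143B cybrids (-0.33 ± 0.10, adjusted p = 0.027, but 0.188 with replicates 2 and 3 averaged). The scaffold MDC1 did not pass (-0.04 ± 0.11, adjusted p = 0.822), although its dimmer probe set did (-0.45, adjusted p = 0.0197, but 0.203 with replicates 2 and 3 averaged).

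The effector kinases did not pass the threshold in the main comparison. CHEK1 had intensities of 274, 206 and 204 in 10A/143B and 300, 242 and 237 in 468/143B cybrids (-0.18 ± 0.14, adjusted p = 0.381), and the groups overlapped. Its other probe sets gave 0.20, 0.28 and, on a dim one that passed, -0.98. CHEK2 had 181, 239 and 236 in 10A/143B and 187, 159 and 133 in 468/143B cybrids (0.42 ± 0.15, adjusted p = 0.0645). Its difference was -0.05 in replicate 1 and 0.65 in replicates 2 and 3, so the replicates disagree on it. Whether the kinases differed from their effectors was not tested.

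Homologous recombination was the class with the most increases, 10 of 12 measured genes, with 1 lower and a median log2 difference of 0.84. The MRN complex, which binds and trims the broken end, was higher in all 3 subunits by the probe set that stands for each gene. RAD50, its coiled-coil ATPase, had 331, 296 and 292 in 10A/143B and 105, 136 and 111 in 468/143B cybrids (1.28 ± 0.12, 2.42-fold, adjusted p = 6.06e-05). MRE11, the nuclease, had 254, 300 and 300 in 10A/143B and 155, 160 and 136 in 468/143B cybrids (0.85 ± 0.11, 1.81-fold, adjusted p = 0.000362). NBN, the subunit that recruits ATM, had 370, 402 and 428 in 10A/143B and 199, 201 and 212 in 468/143B cybrids (0.91 ± 0.09, 1.89-fold, adjusted p = 6.71e-05). In each of the 3 genes the lowest 10A/143B array lay above the highest 468/143B array. Probe sets did not all follow. A second one of MRE11 was higher by 1.11, whereas those of RAD50 gave 1.28, -0.12 and 0.35, with the first alone past the threshold, and of the 5 of NBN 3 were higher (1 of them at an adjusted p of 0.0571 with replicates 2 and 3 averaged), while those at 0.13 and -0.15 did not pass.

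The RecQ helicases BLM and WRN, which unwind recombination intermediates, were both higher, each on its only probe set. BLM had 468, 428 and 474 in 10A/143B and 172, 206 and 209 in 468/143B cybrids (1.16 ± 0.10, 2.23-fold, adjusted p = 3.77e-05). WRN had 146, 121 and 115 in 10A/143B and 49.2, 53.8 and 60.5 in 468/143B cybrids (1.02 ± 0.16, 2.03-fold, adjusted p = 0.000912). Neither gene's groups came near each other.

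BRCA1 and its partners rose too. BARD1, the partner of BRCA1 in a ubiquitin ligase, had 962, 760 and 792 in 10A/143B and 399, 526 and 465 in 468/143B cybrids (0.83 ± 0.12, 1.78-fold, adjusted p = 0.000669), and other probe sets gave 0.94, past the threshold, and 0.22, not past it. PALB2, which joins BRCA1 to BRCA2, had 249, 244 and 239 in 10A/143B and 119, 149 and 170 in 468/143B cybrids (0.70 ± 0.13, 1.62-fold, adjusted p = 0.00299). BRCA1 itself had 228, 237 and 228 in 10A/143B and 175, 155 and 155 in 468/143B cybrids (0.47 ± 0.10, 1.39-fold, adjusted p = 0.00465). Its groups did not overlap and its second probe set gave 0.72, but with replicates 2 and 3 averaged neither passed (adjusted p = 0.0991 and 0.123). 

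The remaining genes of the class, XRCC2, XRCC3, RAD51C and RAD51D, are needed for efficient recombination and went in different directions. XRCC2 had 167, 162 and 151 in 10A/143B and 37.3, 66.3 and 120 in 468/143B cybrids (1.06 ± 0.30, 2.09-fold, adjusted p = 0.0223). Its only probe set carries the cross-hybridisation suffix, the 468/143B arrays spread widely, and XRCC2 no longer passed without any 1 of the 10A/143B replicates or without replicate 2 of the 468/143B cybrids (highest adjusted p = 0.0744). XRCC3 was the lone decrease of the class, with 22.3, 36.8 and 26.4 in 10A/143B and 71.5, 71.5 and 81 in 468/143B cybrids (-1.04 ± 0.19, 2.05-fold lower, adjusted p = 0.00251). RAD51C was higher by 0.32 ± 0.10 at the edge of the threshold (adjusted p = 0.0452), lost it with replicates 2 and 3 averaged (0.244) and read -0.23 on a second probe set, and RAD51D did not pass (-0.35 ± 0.20, adjusted p = 0.228).

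**Figure D2:**
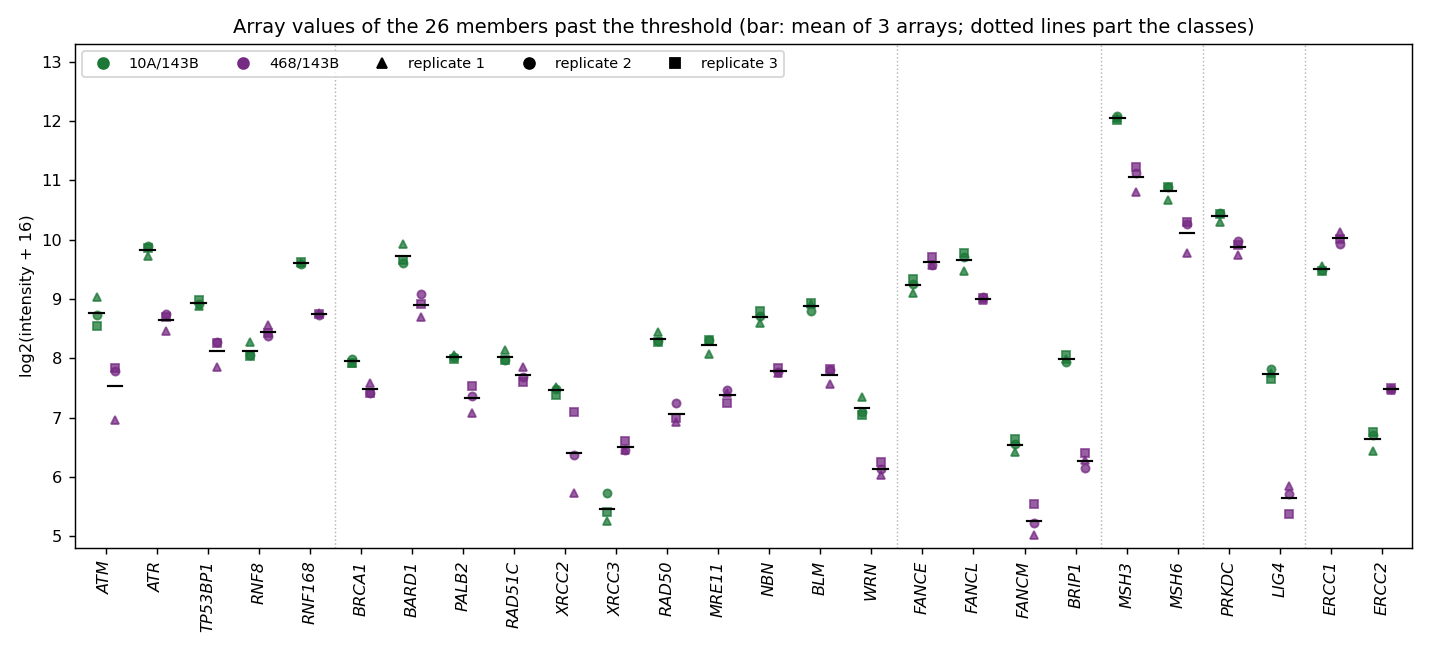
Log2(intensity + 16) of the 26 repair genes past the threshold, 1 point an array (10A/143B in green on the left, 468/143B in purple on the right, marker shape by replicate) and a bar for the mean of 3 arrays. Green and purple points of a gene do not overlap in any of the 26, and XRCC2 has the widest spread among the 468/143B arrays, from 37.3 to 120 in intensity.

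In the Fanconi pathway, which unhooks crosslinks between the strands, 3 of 9 measured genes were higher and 1 lower, with a median log2 difference of 0.05. Of all genes 19.9% were higher and 15.7% lower, and of those at or above the median level 30.7% and 24.8%. The class thus had about the share of increases of bright genes. The 3 Fanconi increases were in BRIP1, FANCM and FANCL. BRIP1, the helicase partner of BRCA1, had 237, 229 and 251 in 10A/143B and 62.2, 54.6 and 68.1 in 468/143B cybrids (1.72 ± 0.12, 3.29-fold, adjusted p = 1.78e-05). FANCM, the translocase that recognises the stalled fork, had 69.6, 77.7 and 83.9 in 10A/143B and 16.6, 21.3 and 30.5 in 468/143B cybrids (1.28 ± 0.20, 2.42-fold, adjusted p = 0.00102). FANCL, the ubiquitin ligase of the core complex, had 695, 820 and 855 in 10A/143B and 488, 505 and 501 in 468/143B cybrids (0.64 ± 0.09, 1.56-fold, adjusted p = 0.000433). A second probe set of BRIP1 gave 1.16 and further ones of FANCM 1.43 and 0.81, all past the threshold, although the last was not with replicates 2 and 3 averaged (adjusted p = 0.111).

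The other subunits of the core complex had differences near 0 or below it. FANCE, which bridges the core to its substrate, was lower, with 534, 596 and 630 in 10A/143B and 744, 744 and 820 in 468/143B cybrids (-0.38 ± 0.08, 1.31-fold lower, adjusted p = 0.00549). FANCG had 498, 588 and 588 in 10A/143B and 635, 690 and 630 in 468/143B cybrids, without overlap (-0.22 ± 0.08, adjusted p = 0.0765), and passed with the replicate block (adjusted p = 0.0426). FANCF (0.04 ± 0.13), FANCC (0.06 ± 0.21) and FANCB (0.00 ± 0.20) did not pass, and FANCB lay below the median level of all probe sets in both groups. FANCI, a subunit of the clamp that the pathway ubiquitinates, has no settled direction. Its brightest probe set had 553, 516 and 534 in 10A/143B and 488, 541 and 516 in 468/143B cybrids, with overlapping groups (0.05 ± 0.07, adjusted p = 0.633). The others gave 0.27 (adjusted p = 0.0218) and -0.60 (adjusted p = 0.00248), past the threshold in opposite ways, but with replicates 2 and 3 averaged the increase did not pass (adjusted p = 0.236) and the decrease did (0.0457).

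Both measured mismatch genes were higher. MSH6, a finder of base mismatches, had 1618, 1872 and 1872 in 10A/143B and 861, 1218 and 1243 in 468/143B cybrids (0.70 ± 0.14, 1.62-fold, adjusted p = 0.00365), and its second bright probe set gave 0.66. MSH3, which finds longer loops, had 4240, 4330 and 4124 in 10A/143B and 1771, 2226 and 2369 in 468/143B cybrids (1.00 ± 0.10, 2-fold, adjusted p = 9.22e-05). The MSH3 increase rests on a probe set with the suffix for cross-hybridisation, since the others gave 0.21 and -0.11 and did not pass, so the direction of MSH3 is uncertain.

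In end joining, 2 of 5 genes were higher and none lower by limma, with a median log2 difference of 0.42, and none was lower at an unadjusted p under 0.05. Of all genes at or above the median level, 30.7% were higher and 24.8% lower. LIG4, the ligase that seals the break, had the largest difference of the 42 genes, with 199, 211 and 185 in 10A/143B and 41.6, 36.3 and 25.6 in 468/143B cybrids (2.10 ± 0.17, 4.28-fold, adjusted p = 2.67e-05). Its other, dimmer probe set gave 0.72 and did not pass. XRCC4, the scaffold that holds LIG4, had 449, 260 and 284 in 10A/143B and 274, 229 and 208 in 468/143B cybrids, with overlapping groups (0.42 ± 0.19, adjusted p = 0.134, or 0.0195 with the replicate block). Its other probe sets gave 0.59 (adjusted p = 0.0237, but 0.0941 with replicates 2 and 3 averaged), and 0.36 and 0.35, which did not pass. PRKDC, the catalytic kinase of DNA-PK, had 1243, 1380 and 1361 in 10A/143B and 843, 996 and 942 in 468/143B cybrids (0.51 ± 0.08, 1.43-fold, adjusted p = 0.000899), with 0.53 on a second probe set. The Ku subunits that bring it to the end did not pass. XRCC5 had 3517, 3350 and 3541 in 10A/143B and 3304, 3281 and 3304 in 468/143B cybrids (0.07 ± 0.05, adjusted p = 0.327), and XRCC6 2937, 3259 and 3421 in 10A/143B and 3517, 3327 and 3566 in 468/143B cybrids (-0.12 ± 0.07, adjusted p = 0.245). XRCC5 has a dim further probe set that was higher by 1.75, with mean intensities of 54.8 in 10A/143B and 4.95 in 468/143B cybrids.

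Of the 6 genes of PARP and excision, 2 were lower and none higher, by limma at an adjusted p under 0.05, with replicates 2 and 3 averaged, or with the replicate block. None was higher at an unadjusted p under 0.05 either. Of all genes at or above the median level, 24.8% were lower and 30.7% higher in the main comparison. ERCC2, a helicase of the repair and transcription factor TFIIH, had 70.5, 88 and 92.4 in 10A/143B and 160, 163 and 164 in 468/143B cybrids (-0.85 ± 0.13, 1.80-fold lower, adjusted p = 0.00115). ERCC1, a subunit of the nuclease that cuts beside a lesion, had 739, 704 and 695 in 10A/143B and 1105, 955 and 1017 in 468/143B cybrids (-0.51 ± 0.07, 1.43-fold lower, adjusted p = 0.000523). A second probe set of ERCC1 agreed at -0.50, but another was higher by 0.51 (adjusted p = 0.00571), and with each gene's probe sets averaged neither ERCC1 (adjusted p = 0.0804) nor ERCC2 (adjusted p = 0.0617) passed. The break sensor PARP1 had 1418, 1675 and 1629 in 10A/143B and 1552, 1746 and 1652 in 468/143B cybrids (-0.07 ± 0.08, adjusted p = 0.561). PARP2 (-0.08 ± 0.08), the lesion sensor XPC (0.20 ± 0.12) and the damage verifier XPA (0.25 ± 0.16) did not pass either, with adjusted p of 0.508, 0.272 and 0.283. The XPA arrays nonetheless did not overlap, at 61.8, 57.3 and 53.8 in 10A/143B and 48.2, 46.2 and 42.8 in 468/143B cybrids.

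Probe sets of a gene agreed in part. Over the 102 probe sets, 38 were higher and 9 lower in 10A/143B, against 18.6% and 12.4% of 41091 probe sets. Of the 30 genes with several, 2 (ERCC1 and FANCI) had probe sets past the threshold in both directions, FANCI not with replicates 2 and 3 averaged. Only 2 (BRCA1 and BRIP1) had all their probe sets past it in the same direction, BRCA1 not with replicates 2 and 3 averaged. RAD51C passed as a gene but not among all probe sets (adjusted p = 0.0539).

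**Figure D3:**
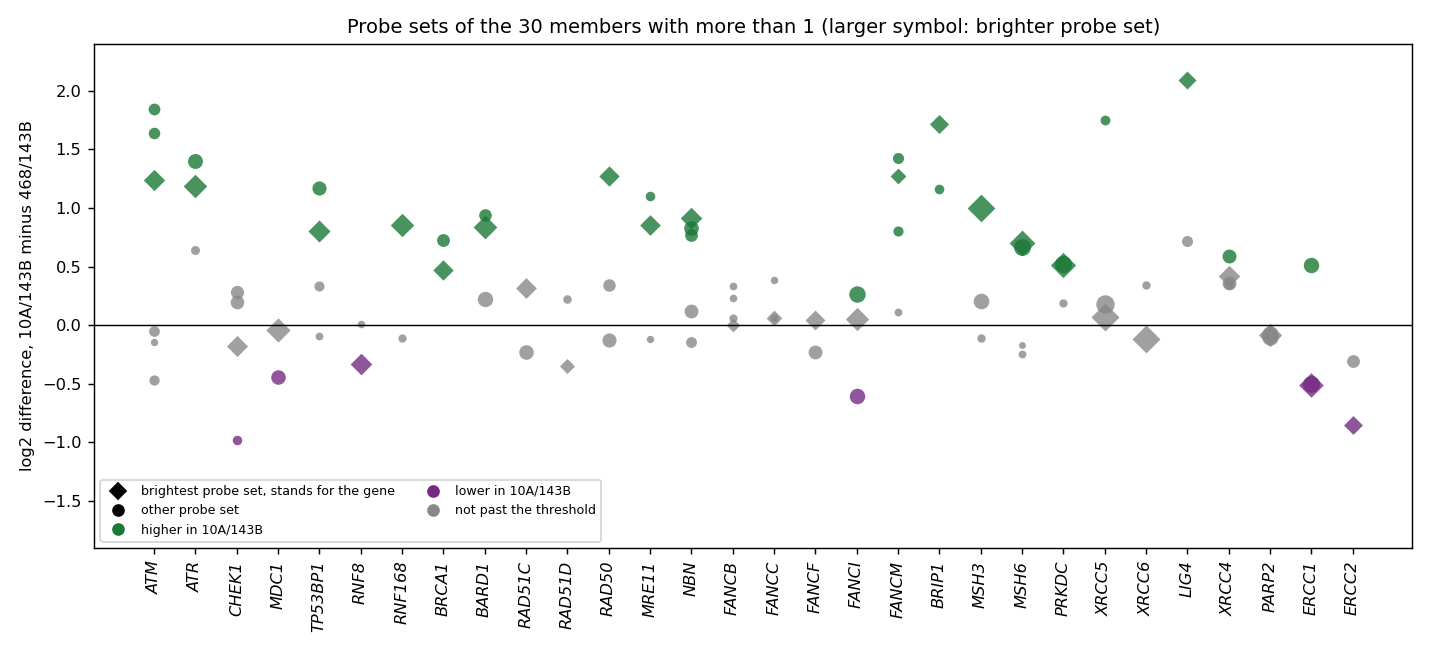
Log2 difference (10A/143B minus 468/143B) of each probe set of the 30 genes with more than 1, diamonds for the brightest, which stands for the gene, and larger symbols for brighter probe sets, green where higher in 10A/143B, purple where lower and grey where not past the threshold. ERCC1 and FANCI hold both green and purple symbols, and XRCC5 a small green one at 1.75.

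Promoters were searched for short motifs, since many of these genes rose together. RefSeq (GRCh38.p14) held windows from 250 bases before to 50 after the start for 37 of the 42 genes, 53 windows in all. NBN, WRN, PRKDC, XRCC5 and FANCI had no entry. The windows of 2 genes called higher, RAD50 (on 1 of its 3 probe sets) and MRE11 of the MRN complex, and of 2 called lower, XRCC3 and ERCC2, are shown 5′ to 3′ along the gene's strand, with capitals on the core of the ETS factor site (CCGGAAG) and the CCAAT box, on either strand.
RAD50 chr5:132556727-132557026 strand +: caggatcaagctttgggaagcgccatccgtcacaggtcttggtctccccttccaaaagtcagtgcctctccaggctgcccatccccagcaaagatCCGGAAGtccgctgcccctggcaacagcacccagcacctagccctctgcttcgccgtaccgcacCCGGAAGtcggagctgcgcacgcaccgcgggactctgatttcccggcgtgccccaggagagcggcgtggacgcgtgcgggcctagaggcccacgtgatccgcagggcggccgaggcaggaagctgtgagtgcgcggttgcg
MRE11 chr11:94493795-94494094 strand -: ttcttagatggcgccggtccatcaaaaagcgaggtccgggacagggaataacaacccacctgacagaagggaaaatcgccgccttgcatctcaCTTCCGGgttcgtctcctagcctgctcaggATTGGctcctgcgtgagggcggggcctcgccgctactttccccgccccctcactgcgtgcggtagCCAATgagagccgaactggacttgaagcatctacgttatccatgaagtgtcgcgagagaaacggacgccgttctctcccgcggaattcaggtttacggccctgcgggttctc
XRCC3 chr14:103715402-103715701 strand -: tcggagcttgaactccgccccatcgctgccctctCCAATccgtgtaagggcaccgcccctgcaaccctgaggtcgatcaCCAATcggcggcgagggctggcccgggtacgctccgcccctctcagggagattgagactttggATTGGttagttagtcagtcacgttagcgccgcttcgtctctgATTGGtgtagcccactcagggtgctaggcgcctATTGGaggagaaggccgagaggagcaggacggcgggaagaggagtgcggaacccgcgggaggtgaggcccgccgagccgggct
ERCC2 chr19:45370524-45370823 strand -: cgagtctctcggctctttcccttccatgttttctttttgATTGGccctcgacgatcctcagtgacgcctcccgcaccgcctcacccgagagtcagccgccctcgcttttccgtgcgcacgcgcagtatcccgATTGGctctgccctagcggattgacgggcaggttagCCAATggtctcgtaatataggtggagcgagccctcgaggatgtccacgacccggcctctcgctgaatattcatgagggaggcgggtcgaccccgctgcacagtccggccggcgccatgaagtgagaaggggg
The RAD50 window holds 2 ETS cores and the MRE11 window 1, while those of XRCC3 and ERCC2 hold none. This contrast does not hold for all genes. ERCC1, also called lower, has an ETS core in 1 of its windows, while BARD1, BRIP1 and FANCL, called higher, have none. CCAAT boxes number 2 in the MRE11 window, 5 in that of XRCC3 and 3 in that of ERCC2, and RAD50 has none there.

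Over all windows of a gene, 9 of 18 genes that were higher in 10A/143B had an ETS core, as had 1 of 5 that were lower and 2 of 14 that did not pass, against 12.2% of all 27305 genes (10.3% of 35116 windows). ATM, ATR, RNF168, TP53BP1, BLM, PALB2 and LIG4 are the other 7 with one. The site of E2F factors (TTTCCCGC, TTTGGCGC, TTTGCCGC or TTTCGCGC), which drive S-phase genes, was in 3 of 18, 0 of 5 and 3 of 14, against 3.99% of all genes (3.31% of windows). MSH6, MSH3 and XRCC2 were the higher genes with it. CCAAT boxes were in 10 of 18, 4 of 5 and 6 of 14, against 39.7% (34.6% of windows). The cell cycle element TTTGAA was in 2 of 18, 1 of 5 and 2 of 14, against 18.2% (15.2% of windows). The cyclic AMP element TGACGTCA was in 3 of 18, 0 of 5 and 1 of 14, against 2.25% (1.85% of windows), and its core TGACGT, which the full element contains, in 5 of 18, 0 of 5 and 4 of 14, against 9.64% (7.98% of windows). The palindromic NRF1 site was in none of the 37, against 1.52% of all genes (1.24% of windows). These 7 motifs were searched on both strands after the gene values were known, and matching letters are not evidence that a factor binds.

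The differences of the repair genes followed gene length, as did those of all genes. In 10 equal classes of length, set over the 7748 protein-coding genes whose mean log2 level exceeded 7, the class medians ran from -0.26 for the shortest to 0.41 for the longest. The 42 repair genes were placed in these classes whatever their level. Some, such as LIG4 (mean log2 level 6.69) and XRCC2 (6.93), are thus set against brighter genes. Of 19 repair genes in classes 8 to 10, 14 were higher in 10A/143B and 0 lower (also 0 at an unadjusted p under 0.05 by limma), with a median of 0.83 against 0.39 for all genes of these classes. Of 23 repair genes in classes 1 to 7, 7 were higher and 5 lower, with a median of -0.04 against -0.06 for all genes there. Spearman's rho of difference with length was 0.455 across the 42 genes, which are not independent replicates, and 0.340 across the 7748. Of the 42, 27 lay above the median of their own length class. LIG4, a short gene of class 3 (class median -0.14), stood furthest from its class, and XRCC2 and MSH6 of class 5 (class median -0.01) were above theirs too. The part of gene length in any of these differences was not tested.

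**Figure D4:**
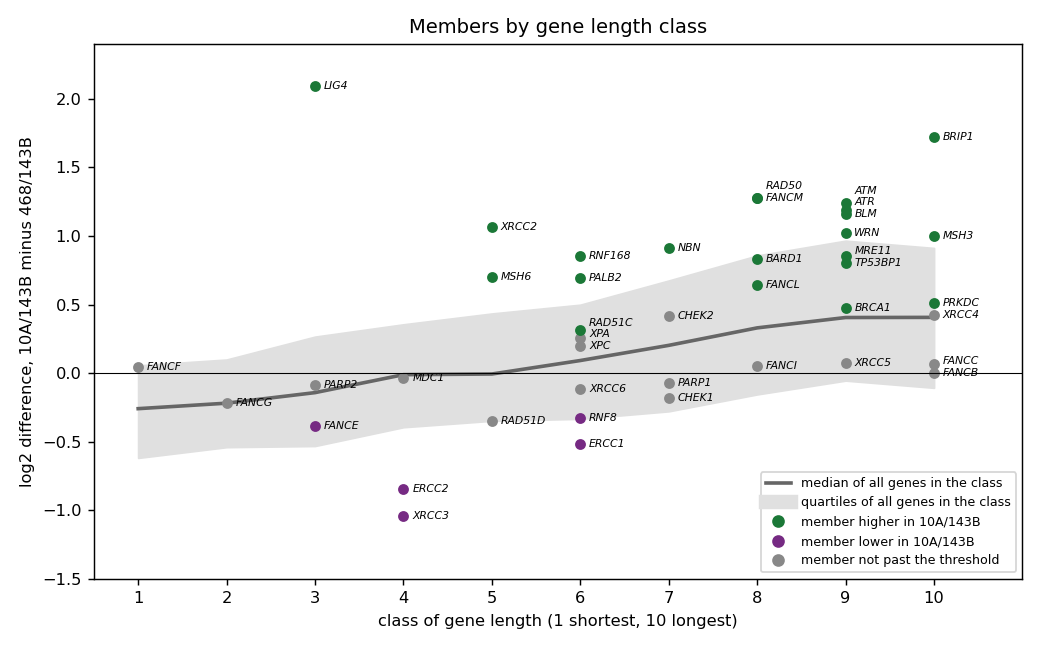
Log2 difference (10A/143B minus 468/143B) of the 42 repair genes in 10 classes of gene length, green where higher in 10A/143B, purple where lower and grey where not past the threshold. Line and band give the median and quartiles of the protein-coding genes of each class with a mean log2 level above 7. All 5 purple points lie in classes 3 to 6, and LIG4 lies at 2.10 in class 3, where the class median is -0.14.

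Chromosomes differ in these arrays, and some repair genes went against theirs. PALB2 was higher (0.70) although chromosome 16 had a median of -0.41 over its genes brighter than the same level. ERCC1 and ERCC2, both on chromosome 19, were lower along with its median of -0.37, and LIG4 lies on chromosome 13, with a median of 0.41. ATM, MRE11, CHEK1 and FANCF share chromosome 11 (median -0.16), where the first 2 were higher and the others did not pass.

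Other genes of the same pathways were compared in the same way, in 8 lists set up with earlier results of these data known. Of 112 measured, 48 (42.9%) rose in 10A/143B and 20 (17.9%) fell, with a median log2 difference of 0.22 (33 and 11 with replicates 2 and 3 averaged). Of all genes 19.9% were higher and 15.7% lower, and of those at or above the median level 30.7% and 24.8%. Among 22 further checkpoint genes 11 were higher and 3 lower (8 and 3 with replicates 2 and 3 averaged), led by RAD17 (1.65 ± 0.12), which loads the checkpoint clamp, ETAA1 (1.57 ± 0.22), an activator of ATR, and ABRAXAS1 (1.34 ± 0.13), of a BRCA1 complex. Among 24 further genes listed under recombination 12 were higher and 3 lower (8 and 1 averaged). The increases were led by the resolvase GEN1 (2.37 ± 0.15), the helicase MCM8 (2.83-fold) and the polymerase POLQ (1.43 ± 0.18). POLQ acts in end joining but was placed in this list, and its counts include it. A second, dim MCM8 probe set gave 0.32 and did not pass, whereas second ones of GEN1 (1.46) and POLQ (1.78) were higher. In these lists of checkpoint and recombination genes the share of increases was 50%, and the increases named were between 2.52-fold and 5.19-fold.

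Among 7 further Fanconi genes 2 were higher and 2 lower (2 and 0 averaged), with the nuclease FAN1 at 1.17 ± 0.14 and the deubiquitinase USP1 at 1.09 ± 0.06. A second USP1 probe set gave 0.43 and did not pass. Further ones of FAN1 gave 1.15, past the threshold, and -0.20, not past it. WDR48, an activator of USP1, was at -0.33 ± 0.11 (adjusted p = 0.0448, and 0.280 averaged), with -0.32 past the threshold and 0.12 and -0.37 not past it on other probe sets. Of 3 further mismatch genes PMS1 was higher (1.60 ± 0.06), though a dim probe set of it passed the other way (-0.62). Of 8 further end-joining genes 4 were higher and 2 lower (2 and 2 averaged), with the end-trimming nuclease DCLRE1C at 0.97 ± 0.18, the scaffold PAXX at -1.01 ± 0.17 and the polymerase POLM at -0.97 ± 0.20. Translesion synthesis and direct reversal had 6 higher and 2 lower of 13 (4 and 1 averaged), led by the polymerases POLK (1.81 ± 0.12) and REV3L (1.75 ± 0.18) and the ligase SHPRH (1.37 ± 0.14). A second REV3L probe set gave 0.57 and did not pass, whereas further ones of POLK gave 0.92 and 0.81 and passed. 

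Of 18 base excision genes 6 were higher and 5 lower (4 and 3 averaged), close to the 30.7% and 24.8% of all genes at or above the median level. Named by size of change were the thymine glycosylase TDG at 1.41 ± 0.11, the flap nuclease FEN1 at 0.88 ± 0.16 and the alkyladenine glycosylase MPG at -1.14 ± 0.07. A second TDG probe set gave 0.20 and did not pass, whereas a second one of FEN1 was higher by 1.07. Of 17 nucleotide excision genes 6 were higher and 3 lower (4 and 1 averaged), led by UVSSA (2.27 ± 0.18), ERCC4 (1.56 ± 0.21), the nuclease partner of ERCC1, and GTF2H1 (1.00 ± 0.10), a TFIIH subunit like ERCC2. A second ERCC4 probe set gave -0.22 and did not pass. A second probe set of GTF2H1 was higher by 0.56, but a dimmer one passed the other way (-0.65). The remaining 3 of UVSSA lay between -0.25 and 0.00, so all 3 genes are uncertain, GTF2H1 only by its dimmest probe set.

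**Figure D5:**
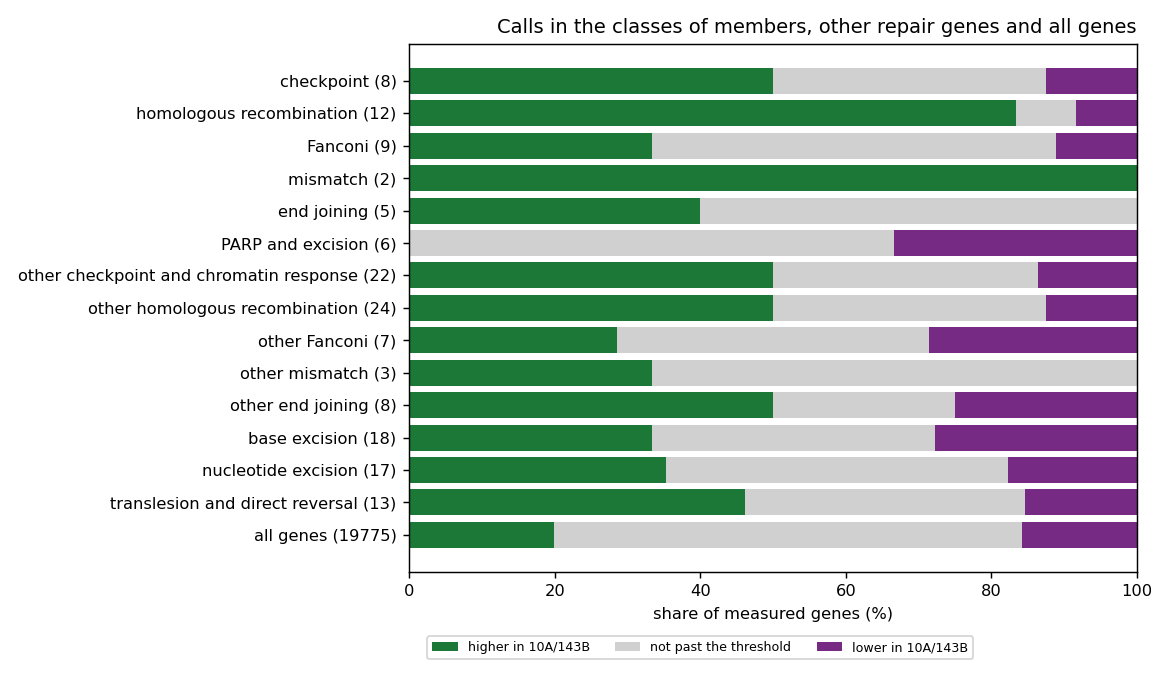
Share of measured genes (%) higher in 10A/143B (green), not past the threshold (grey) and lower (purple) in each class of the 42 repair genes, in 8 lists of other repair genes and in all 19775 genes, with the number measured in brackets. Homologous recombination shows 10 of 12 genes higher, base excision 6 of 18, and all genes 19.9%.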

How the data were processed

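Messenger RNA was measured on 6 Affymetrix arrays, 3 of each cybrid, grouped and numbered by source name, from total RNA with biotin label per the labels' protocols. The authors deposited linear intensity values, 1 per probe set, between 1 and 13125. Summary algorithm, background correction, scaling and genome build were not given in the sources used here. No detection calls were used, and precision is limited by how many arrays there are. Of 54675 probe sets, 41091 had 1 symbol and were not controls. Names of 41037 were updated through Entrez identifiers to RefSeq (GRCh38.p14), which also gave chromosomes and relative lengths.

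Values were taken as log2(intensity + 16), without further scaling. The probe set with the highest mean stood for its gene. The fit used lmFit and eBayes with trend (limma 3.58.1, R 4.3.3) over all 19775 genes, or over 41091 probe sets where a probe set is named, and called at a Benjamini-Hochberg adjusted p under 0.05. The procedure was tested on simulated data. No label names separate cultures, so p-values cover a spread between arrays that may be technical alone.

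Deviations from group means correlated at 0.278, 0.227 and 0.216 between same-numbered replicates 1, 2 and 3 of the groups, above the 0.1 set for a pairing, which rests on the data alone. Replicates 2 and 3 correlated across numbers as well (0.257 and 0.206), so the numbers set replicate 1 apart but do not separate 2 and 3. The main comparison has no replicate block, and the block was an alternative.

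The 42 genes and all lists were chosen with earlier results of these data known. Array values are given for up to 4 genes a class past the threshold with the largest change, and for others; from each further list up to 3 genes past it are named. Alternatives were the offset, scaling, dim-gene filter, choice of probe set, variance model, replicate handling and leaving out each array.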

Additional observations from a re-analysis of the deposited data

How the results depend on the processing

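Of the 26 repair genes that passed, 17 kept their call and direction under as many of the 18 alternatives as could be computed for them. Among these 17, PALB2, XRCC3, BLM, WRN, FANCE and FANCL have 1 probe set each. The choice or mean of probe sets could not change their values. Of the 16 that did not pass, 9 stayed so under all of theirs. CHEK2 stayed so in 12 of 17, and passed, for instance, with the dim-gene filter and without either replicate 1 array. RNF8 lost its call under 8 and RAD51C under 10 of them, XRCC2 in 4 that leave out an array, BRCA1 with replicates 2 and 3 averaged, and ERCC1 and ERCC2 with the mean of probe sets. Without probe sets of the suffixes _x_at and _s_at, which can read several transcripts, RAD50 (-0.12), NBN (-0.15) and MSH3 (-0.11) turned direction and did not pass, because another probe set stood for the gene. Leaving out 1 array gave 19 to 22 genes higher and 4 to 5 lower. The replicate block gave 22 higher and 6 lower, adding XRCC4 and FANCG, and changed no other call of the 42. The count of 5 lower became 8 with array weights and 8 with replicates 2 and 3 only, 2 with the mean of probe sets and 3 of 34 genes without suffixed probe sets. Lower probe sets went to 14, against 9, with replicates 2 and 3 only. The 20 lower among other repair genes became 11 with replicates 2 and 3 averaged and 13 of 88 without suffixed probe sets. Apart from the averaged replicates, the shares of all genes or probe sets lower in these settings are not given here. These counts of decreases therefore cannot be read as particular to repair genes. The median log2 difference of 0.42 was 0.45 with an offset of 1, 0.35 with an offset of 64, 0.28 after quantile normalization, 0.32 after median centring, 0.38 with replicates 2 and 3 averaged, 0.37 with the mean of probe sets, 0.30 without suffixed probe sets, and 0.32 to 0.49 with 1 array left out. All genes had a median of -0.12 once centred, so that the repair genes stood 0.44 above it, as they do in the deposited values, and 0.34 above it after quantile normalization. With 3 arrays a group of which a pair are near duplicates, small differences cannot be resolved.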
